A study of Homo sapiens with 16 samples.

Results

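The late BMP4 state was taken as the 4 arrays labelled BMP4 on days 4, 5, 6 and 7, chosen by their labels alone, of 16 arrays in all. They were set against the 4 untreated arrays of the same days. All arrays came from H1, a widely used human embryonic stem cell line, kept on plates coated with Matrigel in mTeSR, a medium that supports undifferentiated growth. BMP4 cultures received bone morphogenetic protein 4 at 100 ng/ml, and untreated cultures received none. No genotype, clone or other agent sets the arms apart. Each arm had 1 array per day from day 0 to day 7, so the 4 days of the window stand in for replicates (n = 4 arrays per arm). The labels do not say whether the days came from separate cultures, so p-values measure the spread between arrays and days, which may be technical. The series title names the NANOG, OCT4 and SOX2 module, and the comparison asks what the cells had become after several days of BMP4.

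BMP4 is a ligand of the TGF-beta family. It binds a receptor complex with kinase activity, SMAD1, SMAD5 and SMAD9 are phosphorylated, and genes such as the MSX and ID families are switched on. In the embryo BMP signalling patterns the extraembryonic ectoderm, the amnion and the posterior and lateral mesoderm, and it opposes neural fate. Human embryonic stem cells exposed to it leave pluripotency, and their products have been described as trophoblast, amnion or mesoderm.

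Values are deposited bead array intensities in arbitrary units, on which an empty probe reads about 117.3 and a detected probe reads above 134.4. A log2 change is the mean of the BMP4 arrays minus the mean of the untreated arrays after background correction, given with its standard error, and adjusted p-values come from limma with the Benjamini-Hochberg method across the whole set of tested genes, with calls made below 0.05. Where an arm had no array above the detection floor of 134.4, or a mean below it, only a bound against that floor, "at least N-fold", is printed. On each array 42.5% of probes lay above that floor, and the number of arrays limits the precision. Arrays correlated at 0.966 to 0.992 within the BMP4 arm, at 0.985 to 0.991 within the untreated arm and at 0.886 to 0.925 between the arms. At day 0 the 2 arms already differed in 320 genes (2.39% of those tested). A late change recomputed with that day 0 difference subtracted, on the log2 scale, is therefore given where the subtraction ends a call. It is a fitted value and no bound. The check rests on 1 day 0 array per arm, so its error is larger, and a call can be lost with a change as large as before. The BMP4 array of day 0 carries the same BMP4 dose label as the later BMP4 arrays. The labels do not say whether it was taken before or after BMP4 was added. Whether the day 0 difference holds an effect of BMP4 was not tested. A lost call therefore does not show that the arms differed before treatment. In some genes given with a full log2 change, part of the dimmer arm lay below the floor, which makes that change less certain. This held for 2 of 4 untreated arrays in AFMID, CER1, DLX5, ENG, MYL7, PGF, VEGFC and WNT5A. It held for 1 of 4 untreated arrays in ALDH1A2, EDNRB, EFNB1, HEY1, NPY, NRP1, PTH1R, SNAI2 and STRA6, and for 1 of 4 BMP4 arrays in ARTN, FGFR1, OTX2 and TRIM22.

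Markers of the labelled cell type were present in both arms. POU5F1, which encodes OCT4, read 3046, 1921, 1783 and 1528 with BMP4 on days 4, 5, 6 and 7, against 4252, 4641, 4851 and 3472 without it. The arms did not overlap, and the BMP4 arrays were the lower ones on every day (log2 change -1.14 ± 0.17, adjusted p = 2.45e-05). With day 0 subtracted the fall of POU5F1 no longer passed (-0.83, adjusted p = 0.13), and another detected POU5F1 probe had a log2 change of -0.11. SOX2, its partner factor, read 430, 291, 277 and 316 with BMP4, against 2620, 2963, 3011 and 3174 without it. Every BMP4 array lay far below every untreated one (log2 change -3.69 ± 0.24, adjusted p = 4.29e-09). NANOG was dim in both arms, at 204 to 276 with BMP4 and 236 to 321 without it, and did not pass (log2 change -0.28 ± 0.21, adjusted p = 0.275). Another detected NANOG probe had a log2 change of -0.97. With day 0 subtracted the change of the probe used was -1.27, which did not pass either. LIN28A, an RNA-binding protein of undifferentiated cells, fell by 0.73 ± 0.10 on the log2 scale but still read 4969 to 6961 with BMP4, against 9075 to 10565 without it. DNMT3B, a de novo DNA methyltransferase, fell by 1.81 ± 0.18, L1TD1 by 1.32 ± 0.20, DPPA4 by 0.93 ± 0.15 and ZFP42 by 0.67 ± 0.10 on the log2 scale. In bulk RNA, fewer cells that express a gene and less of its RNA per cell cannot be told apart.

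Of 13391 tested genes, 7224 passed (53.9%), of which 3659 were higher with BMP4 (27.3% of all tested) and 3565 were lower (26.6%), with a median log2 change of 0.004 over all genes. At least 2-fold higher were 1290 genes (9.63%), and at least 2-fold lower were 948 (7.08%). In 6307 genes (47.1%) the 4 BMP4 arrays did not overlap the 4 untreated ones. With day 0 subtracted 2610 genes passed (19.5%), 1194 higher (8.92%) and 1416 lower (10.6%), and 6282 of the 7224 called genes kept their sign. Centring the arrays on a list of housekeeping genes shifted the median of all genes to -0.166 and made 35.7% of the called genes higher, against 50.7% without that centring, so changes smaller than this shift are not read as a direction.

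The largest rise was in HAND1, a transcription factor of the bHLH class found in trophoblast, amnion and lateral mesoderm. HAND1 read 17873, 17958, 17626 and 17199 with BMP4, against 248, 160, 226 and 222 without it. The BMP4 arrays were nearly level over the 4 days and lay close to the top of the scale, which ended at 28353 (log2 change 7.37 ± 0.64, adjusted p = 6.55e-08). APLNR, the receptor of apelin and a marker of lateral mesoderm, read 5890, 5732, 4749 and 3602 with BMP4, against 146, 124, 151 and 123 without it. All BMP4 arrays were high, the later ones less so (log2 change 7.14 ± 0.85, adjusted p = 2.40e-06), and 2 of the 4 untreated ones lay above the floor. PITX1, a homeobox gene of the hindlimb and posterior lateral mesoderm, read 3844, 5915, 6515 and 7202 with BMP4, against 134, 131, 170 and 148 without it. The arms stood apart on every day, and the BMP4 value was highest on day 7 (log2 change 7.05 ± 0.57, adjusted p = 3.11e-08, with 2 of 4 untreated arrays above the floor).

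ISL1, a LIM homeobox gene of cardiac progenitors and amnion, followed with 4105, 4163, 4822 and 4321 under BMP4, against 159, 139, 153 and 148 without it. The BMP4 arrays formed a plateau and the untreated arrays sat near background (log2 change 6.47 ± 0.54, adjusted p = 4.26e-08). MSX1, a homeobox target of BMP signalling, read 6172, 7337, 7390 and 6664 with BMP4, against 216, 193, 193 and 203 without it. Its arrays varied little within either arm (log2 change 6.09 ± 0.25, adjusted p = 3.62e-11). HOXB8, a gene of the trunk HOX code, was not well above background in untreated cells and read 912 to 1458 with BMP4, at least 34.5-fold higher (adjusted p = 3.11e-07). LCP1, which encodes the actin-bundling protein L-plastin, rose by 5.35 ± 0.26 on the log2 scale (1783 to 2643 with BMP4, 147 to 170 without it). TCIM, a regulator of WNT signalling, was at least 36.4-fold higher. For the keratin pseudogene KRT16P2 the probe read 1359 to 2904 with BMP4, at least 53.0-fold above untreated cells, but it may read near-identical keratin transcripts, so the gene is uncertain. The other genes among the 15 largest rises encode secreted, transport or metabolic proteins (NPY, HAPLN1, LUM, SLC39A2, UGT2B11 and SLCO2A1) and are described with their groups.

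**Figure D1:**
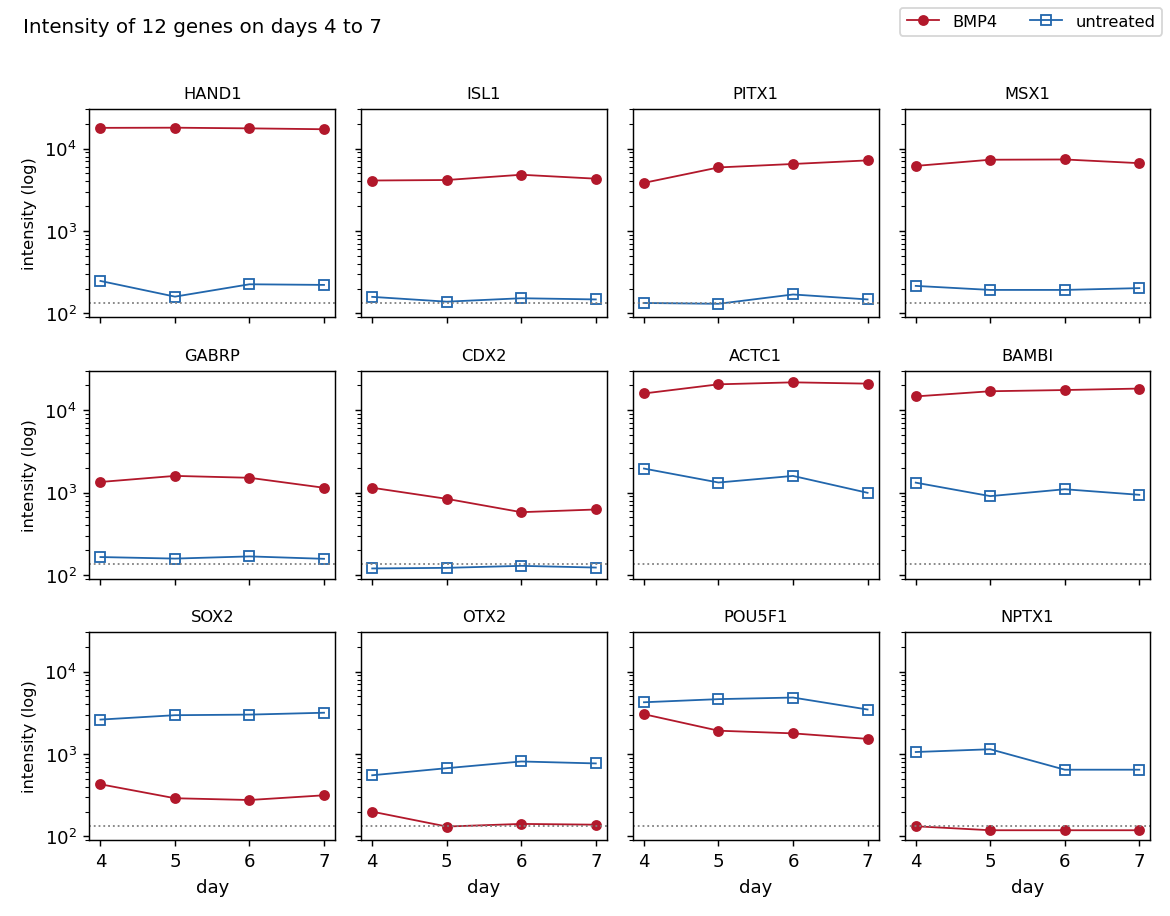
Deposited intensity (log axis, arbitrary units) on days 4, 5, 6 and 7 of 12 genes, BMP4 arrays as filled circles and untreated arrays as open squares, 1 array per point, with the detection floor of 134.4 as a dotted line. HAND1 lay at 17199 to 17958 with BMP4 and at 160 to 248 without it, while SOX2 lay at 277 to 430 with BMP4 and at 2620 to 3174 without it.

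The largest fall was in NPTX1, which encodes a neuronal pentraxin. It read 133, 119, 119 and 119 with BMP4, against 1059, 1144, 646 and 646 without it. Every BMP4 array was at background, which makes the fall at least 22.3-fold (adjusted p = 5.09e-09), while the other detected NPTX1 probes had log2 changes of -1.36 and -1.15. SOX21 and SOX3, relatives of SOX2 in neural progenitors, fell by 4.23 ± 0.37 and 3.81 ± 0.32 on the log2 scale, and SOX3 did not pass with day 0 subtracted (-2.00, adjusted p = 0.061). SHISA2, an inhibitor of WNT and FGF receptor maturation, read 183, 153, 149 and 169 with BMP4, against 729, 1183, 1605 and 2211 without it. The gap widened as the untreated arrays climbed from day to day while the BMP4 arrays stayed low (log2 change -4.33 ± 0.33, adjusted p = 1.82e-08). LRIG1, a negative regulator of ERBB receptors, fell by 4.02 ± 0.21 (149 to 195 with BMP4, 952 to 1263 without it). PRKCB, a protein kinase C gene, was at least 9.73-fold lower, BTBD17 at least 10.7-fold lower, and COL9A1, a cartilage collagen gene, at least 7.85-fold lower. Other detected probes changed by -1.01, -1.34, -1.17 and -2.67 for PRKCB and by -0.76 for COL9A1 on the log2 scale. TTYH1, of a family of chloride channels, fell by 3.38 ± 0.32 and TRIM22, an interferon-inducible gene, by 3.29 ± 0.23 on the log2 scale.

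Cell identity lists differed widely in how their members moved. Beside shares of 27.3% higher and 26.6% lower over all tested genes, the list of lateral and cardiac mesoderm had 18 of 19 tested members higher and none lower, with a median log2 change of 3.24. The list median is 3.08 with members below the floor in an arm set at their bound. In amnion genes 12 of 13 were higher and none lower (median 4.14), in trophoblast genes 15 of 21 were higher and 1 lower (median 1.92), and in surface ectoderm genes 10 of 12 were higher and none lower (median 0.74). Neural ectoderm went the other way, with 10 of 14 lower and 1 higher (median -2.26, or -1.72 at the bounds). The lists share members, since HAND1 counts for trophoblast, amnion and lateral mesoderm, and ISL1 and TBX3 count for amnion and lateral mesoderm. The lists were drawn up with earlier results of these data known, so their counts are descriptions. A gene was tested if above the floor on at least 3 of the 16 arrays, which BMP4 arrays alone could meet. No untreated array of days 4 to 7 was above the floor in 9 lateral mesoderm, 6 trophoblast and 4 amnion members. Counts of all lists stand beside the 27.3% and 26.6% above, and with day 0 subtracted beside 8.92% higher and 10.6% lower.

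**Figure D2:**
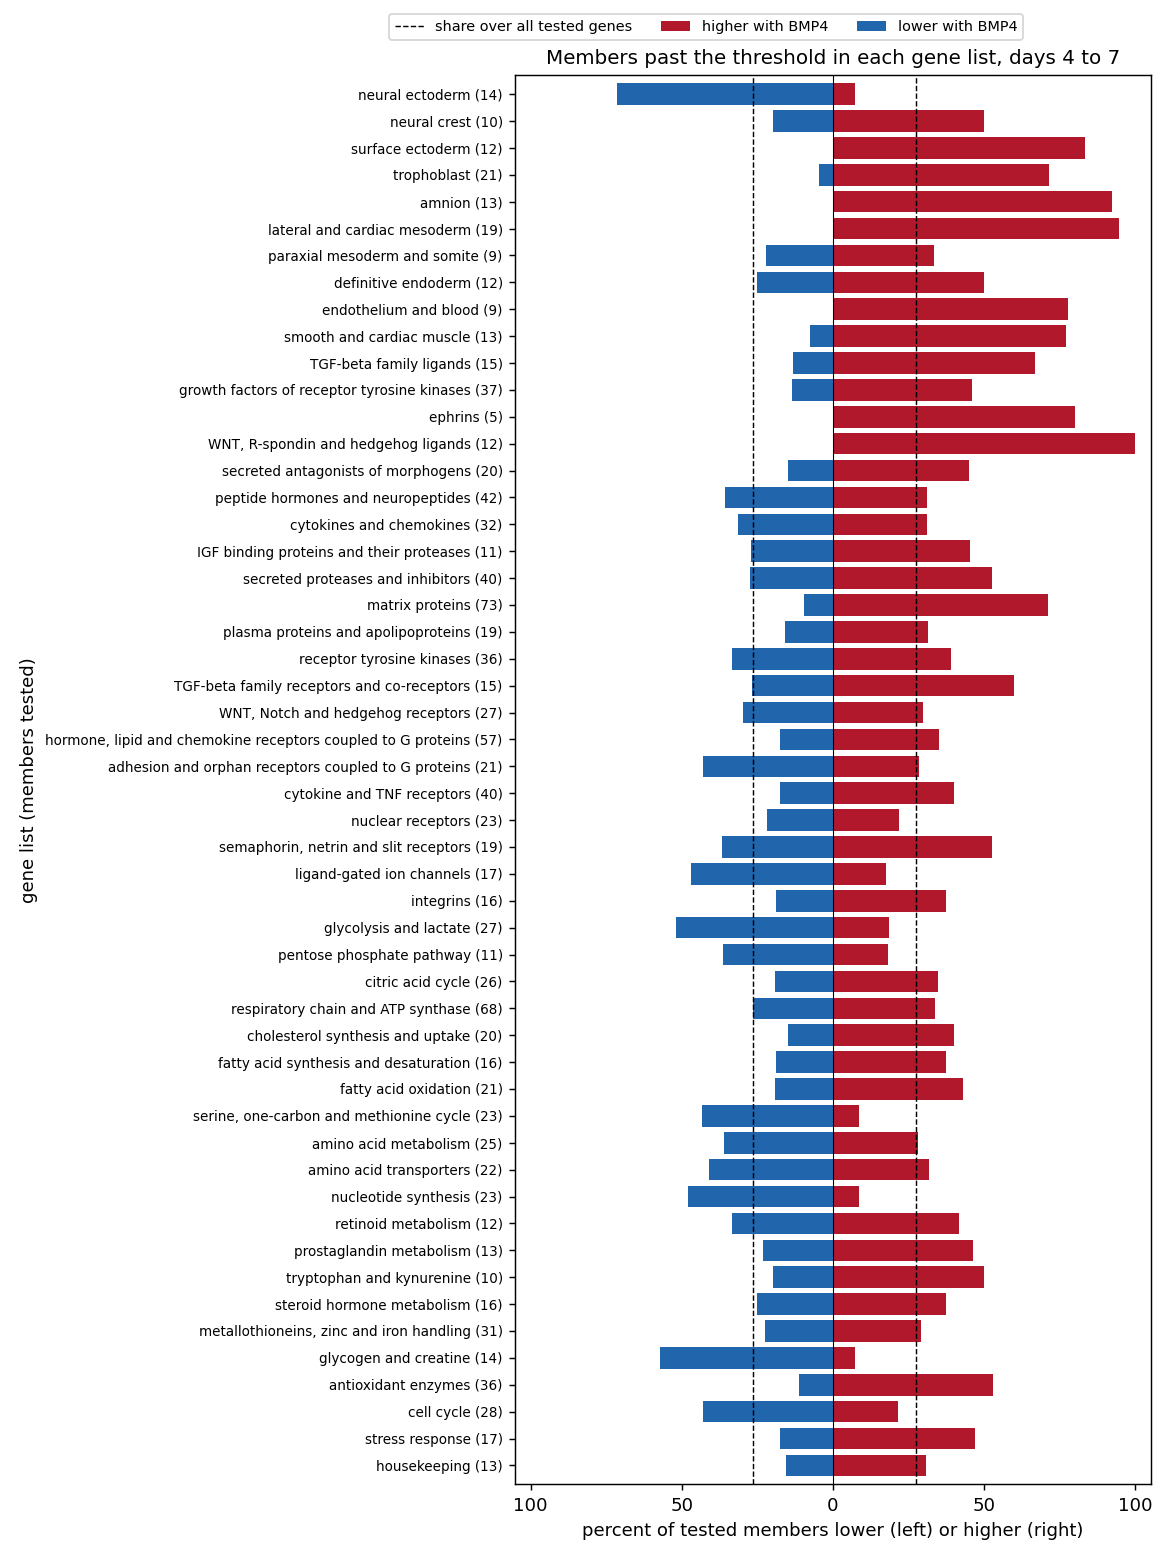
Share of tested members of each of 52 gene lists that were higher (to the right, percent) or lower (to the left, percent) with BMP4 on days 4 to 7, with the number tested beside each name and dashed lines at the shares over all tested genes, 27.3% higher and 26.6% lower. Lateral and cardiac mesoderm, WNT ligands, amnion and surface ectoderm reach furthest to the right, and neural ectoderm reaches furthest to the left.

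Among the 19 tested genes of lateral and cardiac mesoderm, 16 were still higher with day 0 subtracted, beside 8.92% of all tested genes. All 18 called members had arms that did not overlap, as did 47.1% of all tested genes, called or not. SNAI2, a repressor that drives epithelial cells to a mesenchymal form, read 1007, 1974, 2025 and 2017 with BMP4, against 143, 134, 154 and 159 without it. Day 4 was the lowest BMP4 array and still lay above every untreated one (log2 change 5.14 ± 0.47, adjusted p = 1.26e-07). TBX3, a T-box factor of the heart tube and limb, read 781 to 842 with BMP4 and was at least 21.7-fold higher (adjusted p = 2.21e-08), while another detected TBX3 probe had a log2 change of 2.33. Named after their values were seen, MEIS2 was at least 16.4-fold, HAND2 at least 15.7-fold, PRRX1 at least 12.9-fold and GATA5 at least 11.3-fold higher, and the early cardiac factor NKX2-5 was at least 4.52-fold higher at intensities of only 221 to 271. Another detected probe changed by only 0.63 for MEIS2 and by only 0.65 for PRRX1 on the log2 scale. GATA6 was the member that did not pass (log2 change 0.26 ± 0.17).

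Amnion genes included several with stable high values. Besides HAND1 and ISL1, the Notch target HEY1 read 1517, 1283, 1379 and 1291 with BMP4, against 147, 126, 159 and 176 without it. The 4 BMP4 arrays were close together and clear of the untreated ones (log2 change 4.73 ± 0.30, adjusted p = 3.48e-09). GABRP, a subunit of a GABA receptor that also had the largest rise in the list of ligand-gated ion channels, read 1344, 1593, 1511 and 1143 with BMP4, against 165, 158, 168 and 157 without it. Its arms were separate on every day (log2 change 4.41 ± 0.44, adjusted p = 3.53e-07). VTCN1, an immune checkpoint ligand of amnion and trophoblast named after its values were seen, was at least 8.08-fold higher at 346 to 412. The mucin gene MUC16 was the amnion member that did not pass (log2 change -0.21 ± 0.20). After subtraction of day 0, 9 of the 13 members were higher.

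The trophoblast genes that rose included regulators and simple keratins. CDX2, a homeobox gene of trophectoderm and posterior mesoderm, read 1144, 839, 578 and 623 with BMP4, against 120, 122, 129 and 123 without it. BMP4 arrays were all above the untreated ones, with the later days lower than day 4, and the gene was at least 20.0-fold higher (adjusted p = 4.71e-09). TFAP2A, which marks both trophoblast and surface ectoderm, rose by 4.11 ± 0.26 (log2), and its gap narrowed over the window (slope difference -0.58 ± 0.13 log2 units per day, adjusted p = 0.0212). MSX2, a homeobox target of BMP signalling, was at least 11.4-fold higher. The regulators GATA2 and GATA3, named after their values were seen, were higher by at least 7.52-fold and 5.53-fold. The keratin genes KRT8 and KRT19, chosen likewise, both rose by 2.38 on the log2 scale (SE 0.17 and 0.24), with KRT19 at 9271 to 11694 under BMP4 and 1820 to 2613 without it.

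Placental hormone and fusion genes were looked up after their values were seen. CGA, the common alpha subunit of the glycoprotein hormones, read 127, 150, 157 and 255 with BMP4, against 124, 142, 119 and 127 without it. Its arms overlapped, and only the day 7 BMP4 array stood out. The late call was at least 1.66-fold (adjusted p = 0.0215), and with day 0 subtracted the change of 1.64 did not pass (adjusted p = 0.16). CGB5, a chorionic gonadotropin beta gene, did not pass (118 to 156 with BMP4, 129 to 139 without it, adjusted p = 0.468), and neither did GCM1, the regulator of syncytial fusion, or the fusion gene ERVW-1. With day 0 subtracted, however, ERVW-1 passed as higher, with a change of 1.69 against 0.32 before. Its intensities were near the floor, at 142 to 167 with BMP4 and 132 to 152 without it.

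Among surface ectoderm genes, DLX5, a homeobox gene of BMP-responsive ectoderm, read 1283, 1640, 1715 and 1476 with BMP4, against 125, 154, 133 and 267 without it. The untreated day 7 array was the highest of its arm and still far below the BMP4 arrays (log2 change 4.77 ± 0.44, adjusted p = 1.32e-07). TFAP2C rose by 1.92 ± 0.15, the homeobox gene DLX3 by 1.33 ± 0.21, and DSP, which encodes the desmosome protein desmoplakin, by 1.32 ± 0.16 on the log2 scale. Of the 12 surface ectoderm genes 3 passed as higher with day 0 subtracted, beside 8.92% of all tested genes, and TFAP2C did not (0.90, adjusted p = 0.065). In neural crest genes 5 of 10 were higher and 2 lower (median 0.10), led by SNAI2, TFAP2A and TWIST1, a mesenchymal factor that was at least 8.46-fold higher, and by the SOX9 gene of crest and cartilage (1.89 ± 0.23).

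Neural ectoderm genes were lower with BMP4, and 8 of 14 passed as lower after subtraction of day 0. OTX2, a forebrain and epiblast homeobox gene, read 200, 132, 142 and 139 with BMP4, against 553, 674, 813 and 770 without it. BMP4 arrays of days 5 to 7 lay close to the floor (log2 change -3.67 ± 0.28, adjusted p = 1.65e-08). SIX3, which specifies the anterior forebrain, read 121, 114, 115 and 124 with BMP4, against 239, 250, 364 and 858 without it. All BMP4 arrays were at background while the untreated arrays climbed, which gives a fall of at least 7.62-fold (adjusted p = 1.64e-06). HESX1, a repressor of the anterior neural plate and pituitary, fell by 3.25 ± 0.32 on the log2 scale, with untreated values of 338 to 1112. In 8 of the 14 tested neural ectoderm genes the slope difference over days 4 to 7 passed the threshold below 0, against 125 of 13391 genes overall (0.933%).

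Other identities moved in part. Definitive endoderm genes were higher in 6 of 12 and lower in 3, and 2 passed as higher with day 0 subtracted. SOX17, a factor of endoderm, germ cells and endothelium, read 672, 431, 341 and 370 with BMP4, against 119, 125, 124 and 109 without it. Its BMP4 arrays were all higher and were highest on day 4 (adjusted p = 5.65e-05), but with day 0 subtracted the change of 3.97 just missed the threshold (adjusted p = 0.052). GATA4, shared by endoderm and heart, was at least 4.35-fold higher. Paraxial mesoderm genes were higher in 3 of 9 and lower in 2, with MSGN1, a presomitic factor, at least 2.11-fold higher, the Notch ligand DLL3 higher by 1.20 ± 0.36, and the Notch modulator LFNG lower by 1.63 ± 0.24 on the log2 scale. Neither MSGN1 (1.68, adjusted p = 0.13) nor DLL3 (1.44, adjusted p = 0.22) passed with day 0 subtracted.

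Endothelial and blood genes were higher in 7 of 9 tested members and none lower (median 1.05, or 0.86 at the bounds), but none passed with day 0 subtracted, and the stricter filter that asks for 4 of 8 late arrays above the floor left 4 higher. TEK, the receptor of the angiopoietins, read 536, 1337, 2016 and 2804 with BMP4, against 523, 490, 604 and 500 without it. On day 4 the arms overlapped, and the BMP4 arrays then climbed (log2 change 1.60 ± 0.37, adjusted p = 0.00141, slope difference 0.84 ± 0.13 per day). LMO2, a scaffold of blood and endothelial transcription complexes, rose by 1.99 ± 0.26 to 203 to 351, and ESAM, an endothelial adhesion gene, read 122, 149, 176 and 289 with BMP4, against 118, 103, 117 and 112 without it. For ESAM the late change was at least 1.90-fold, and the BMP4 arrays rose day by day from the untreated level. The changes were 2.11 for TEK (adjusted p = 0.080), 1.69 for LMO2 (adjusted p = 0.053) and 0.90 for ESAM (adjusted p = 0.50) with day 0 subtracted.

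Smooth and cardiac muscle genes were higher in 10 of 13 and lower in 1 (median 0.90), and 7 were higher with day 0 subtracted. ACTC1, the alpha-cardiac actin gene, read 15941, 20578, 21754 and 20975 with BMP4, against 1955, 1324, 1592 and 993 without it. The BMP4 arrays were all high and lowest on day 4, with no overlap (log2 change 3.89 ± 0.22, adjusted p = 1.23e-09). MYL4, the atrial essential light chain gene, read 489, 1104, 1365 and 1324 with BMP4 and stayed at background without it, at least 26.6-fold higher (adjusted p = 9.65e-09). MYL7, the atrial regulatory light chain gene, read 341, 358, 463 and 532 with BMP4, against 145, 129, 133 and 136 without it. Day 7 was the highest BMP4 array and no array overlapped (log2 change 3.19 ± 0.22). ACTA2, smooth muscle actin, read 1023, 2265, 3438 and 6720 with BMP4, against 589, 539, 475 and 539 without it. Each day was brighter than the day before under BMP4 and level without it (log2 change 2.58 ± 0.39, adjusted p = 2.82e-05). With day 0 subtracted ACTA2 missed the threshold (2.32, adjusted p = 0.069). ACTG2, the enteric smooth muscle actin gene, was the contractile actin that did not pass, and its arms overlapped (278 to 587 with BMP4, 355 to 702 without it, log2 change -0.63 ± 0.28, adjusted p = 0.0609).

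Contractile genes share a known regulator, serum response factor, whose motif is the CArG box. The 250 bases upstream of the start site were therefore searched, in RefSeq sequence of the GRCh38.p14 build, for exact matches (6 bases of only A or T between CC and GG; the motif reads the same on both strands). Of the muscle list 9 members had such windows, and 3 of them (33.3%) held a match, against 168 of 10573 tested genes (1.59%) and 407 of 35116 windows in all (1.16%). The 3 genes were ACTC1, MYL7 and ACTG2, so that the motif was found both in genes that rose and in ACTG2, which did not pass. They are shown with ACTA2, which rose day by day and had no exact match in its 2 windows. The ACTA2 window shown holds the near matches ccctatatgg and ccttgtttgg, each with a C or G among the 6 inner bases. The exact search misses such forms, so it does not show that ACTA2 lacks a CArG box. Each window runs 5′ to 3′ on the gene's strand, with exact matches in capitals.
ACTC1, chr15:34795550-34795799, minus strand, box starting 109 bases upstream, 1 of 3 windows: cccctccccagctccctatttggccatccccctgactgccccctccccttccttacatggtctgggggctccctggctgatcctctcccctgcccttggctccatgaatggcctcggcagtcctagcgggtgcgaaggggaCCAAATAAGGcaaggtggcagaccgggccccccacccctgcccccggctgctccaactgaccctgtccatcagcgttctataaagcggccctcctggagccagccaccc
MYL7, chr7:44141333-44141582, minus strand, box starting 61 bases upstream: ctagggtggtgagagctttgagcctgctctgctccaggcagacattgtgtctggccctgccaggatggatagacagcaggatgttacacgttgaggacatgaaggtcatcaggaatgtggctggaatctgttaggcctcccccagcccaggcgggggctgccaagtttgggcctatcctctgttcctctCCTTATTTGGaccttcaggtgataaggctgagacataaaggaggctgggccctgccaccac
ACTG2, chr2:73892758-73893007, plus strand, boxes starting 110 and 73 bases upstream: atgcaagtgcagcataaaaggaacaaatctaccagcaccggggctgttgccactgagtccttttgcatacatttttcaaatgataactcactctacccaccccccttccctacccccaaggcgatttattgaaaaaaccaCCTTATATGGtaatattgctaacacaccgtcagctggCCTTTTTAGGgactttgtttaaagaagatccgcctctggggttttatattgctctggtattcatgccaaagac
ACTA2, chr10:88952774-88953023, minus strand, no match: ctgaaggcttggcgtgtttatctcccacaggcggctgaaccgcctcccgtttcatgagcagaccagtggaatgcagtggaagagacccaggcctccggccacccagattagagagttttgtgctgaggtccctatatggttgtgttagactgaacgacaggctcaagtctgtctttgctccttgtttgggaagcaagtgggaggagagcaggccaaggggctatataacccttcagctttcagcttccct
A match of letters is a description of the window and not a measured binding site.

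Among secreted products the matrix list was the longest. Of 73 tested matrix genes, 52 were higher and 7 lower (median 1.19, or 1.12 at the bounds), and 31 were higher with day 0 subtracted. HAPLN1, the link protein that ties hyaluronan to proteoglycans, read 4463, 6832, 8521 and 9408 with BMP4, against 212, 179, 278 and 261 without it. The BMP4 arrays climbed over the window and were all far above the untreated ones (log2 change 5.79 ± 0.47, adjusted p = 4.01e-08). LUM, which encodes the keratan sulfate proteoglycan lumican, read 851, 2312, 3460 and 4065 with BMP4, against 150, 139, 190 and 174 without it. Its lowest BMP4 array, on day 4, was still above every untreated one (log2 change 5.21 ± 0.52, adjusted p = 3.55e-07). The fibrillar collagen gene COL5A1 rose by 3.79 ± 0.31 on the log2 scale (2555 to 8065 with BMP4, 372 to 542 without it).

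COL6A3, a chain of the microfibrillar collagen VI, read 240, 1265, 2342 and 3427 with BMP4, against 176, 163, 223 and 165 without it. On day 4 it was barely above the untreated arrays, and it had the steepest gain among matrix genes (log2 change 3.76 ± 0.63, slope difference 1.45 ± 0.26 per day, adjusted p = 0.00662). Its late change with day 0 subtracted, 3.73, missed the threshold (adjusted p = 0.073). Past the threshold, the slope difference over days 4 to 7 was above 0 in 17 matrix genes and below 0 in 3, beside 1.96% and 0.933% of all genes. In 21 the late change stood above that of days 1 to 3, again past the threshold, beside 4.93%. The 7 lower matrix genes included BCAN, named after its values were seen, which encodes the brain proteoglycan brevican.

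WNT, R-spondin and hedgehog ligands were higher in 12 of 12 tested members (median 1.54, or 1.27 at the bounds), of which 5 passed with day 0 subtracted, while 15 further listed ligands were below the filter. In 6 of the 12, no untreated array of days 4 to 7 lay above the floor. BMP4 arrays alone could meet the filter, so the count of 12 of 12 may follow in part from the filter. WNT5B, a noncanonical ligand, read 1225, 940, 744 and 588 with BMP4, against 124, 119, 132 and 134 without it. The BMP4 arrays declined over the days and remained clear of the untreated ones, at least 22.2-fold above them (adjusted p = 9.86e-09). WNT5A rose by 3.88 ± 0.52 on the log2 scale (459 to 785 with BMP4, 133 to 148 without it), and WNT3, the ligand that starts the primitive streak, was at least 6.42-fold higher at 258 to 428. RSPO3, which amplifies WNT signals, read 348, 393, 498 and 837 with BMP4, against 162, 142, 154 and 185 without it. Its arms were separate, with the highest value on day 7 (log2 change 2.74 ± 0.39, adjusted p = 1.56e-05).

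TGF-beta family ligands were higher in 10 of 15 and lower in 2, although only 1 was higher with day 0 subtracted. That was BMP4 itself, whose probe read 669, 830, 631 and 575 in the treated arm, against 140, 120, 141 and 127 in untreated cells. The endogenous gene was at least 15.8-fold higher, with no overlap (adjusted p = 5.13e-09). LEFTY2, a secreted inhibitor of NODAL, read 1385, 1008, 1094 and 668 with BMP4, against 172, 165, 140 and 160 without it. Its arms were well apart (log2 change 4.00 ± 0.45), but the late call was gone after day 0 subtraction (2.73, adjusted p = 0.066). BMP2 rose by 2.89 ± 0.50 on the log2 scale but by only 0.28 with day 0 subtracted (adjusted p = 0.89). BMP5 was at least 2.98-fold higher at 170 to 252 (1.29, adjusted p = 0.074, with day 0 subtracted).

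Secreted antagonists of these ligands were higher in 9 of 20 and lower in 3. DKK1, an inhibitor of canonical WNT receptors, read 765, 1610, 2224 and 2261 with BMP4, against 150, 147, 164 and 223 without it. The BMP4 arrays climbed from day 4 to day 6 and were all above the untreated ones (log2 change 4.51 ± 0.38, adjusted p = 4.89e-08). BMPER, a modulator that binds BMP ligands, was at least 18.1-fold higher (575 to 934). SFRP2, a soluble decoy for WNT ligands, read 763, 409, 355 and 316 with BMP4, against 1769, 1670, 2022 and 1725 without it. Its fall grew over the window (log2 change -2.38 ± 0.24, slope difference -0.53 ± 0.12 per day).

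Growth factors for receptor tyrosine kinases were higher in 17 of 37 and lower in 5 (median 0.51, or 0.32 at the bounds). ANGPT2, a ligand of TEK in vessel remodelling, read 414, 513, 590 and 533 with BMP4, against 106, 104, 115 and 111 without it. Untreated cells were at background, so the rise is at least 12.3-fold (adjusted p = 7.62e-09). HGF, hepatocyte growth factor, was at least 6.13-fold higher at 209 to 369, PROS1, an anticoagulant that also binds MERTK, rose by 2.16 ± 0.31, and PGF, placental growth factor, by 2.09 ± 0.19 on the log2 scale. FGF2, which sustains stem cell self-renewal, read 274, 212, 203 and 189 with BMP4, against 662, 644, 477 and 565 without it. It was the largest fall of the list (log2 change -2.07 ± 0.28, adjusted p = 8.84e-06). Of the ephrins, ligands bound to the cell surface, 4 of 5 were higher. EFNA1 rose by 2.83 ± 0.21 (1028 to 1236 with BMP4, 226 to 258 without it), EFNB2, a marker of arteries, by 1.75 ± 0.20 and EFNB1 by 1.00 ± 0.27 on the log2 scale, and of the 5 only 1 passed with day 0 subtracted (EFNB2 1.27, adjusted p = 0.053, EFNB1 1.32, adjusted p = 0.13).

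Peptide hormone genes were split, with 13 of 42 higher and 15 lower (median -0.05). NPY, neuropeptide Y, read 938, 2727, 4093 and 4764 with BMP4, against 134, 135, 142 and 144 without it. The BMP4 arrays rose day by day from a day 4 value already above background (log2 change 6.09 ± 0.44, adjusted p = 1.03e-08, slope difference 0.66 ± 0.15 per day). NTS, neurotensin, ran the other way and read 9713, 6406, 4101 and 2287 with BMP4, against 396, 399, 358 and 285 without it. All its BMP4 arrays were high, and each was lower than on the day before (log2 change 4.24 ± 0.35, slope difference -0.48 ± 0.09 per day). GRP, gastrin-releasing peptide, was at least 10.8-fold higher, though with day 0 subtracted the change of 3.78 missed the threshold (adjusted p = 0.06). VGF, a neuronal secretory granule protein, fell by 3.08 ± 0.26 on the log2 scale (218 to 271 with BMP4, 960 to 1382 without it).

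Named after their values were seen, CRHBP and STC1 showed secreted products moving in opposite directions. CRHBP, a binding protein for corticotropin-releasing hormone, read 623, 2186, 3704 and 8158 with BMP4, against 138, 142, 272 and 204 without it. No arrays overlapped and the day 7 array was by far the highest (log2 change 5.06 ± 0.69, adjusted p = 1.02e-05). CRH itself was at least 1.86-fold higher at 153 to 172, and its receptor gene CRHR1 did not pass (0.06 ± 0.21). STC1, the hormone stanniocalcin 1, fell by 2.92 ± 0.18 (201 to 268 with BMP4, 820 to 1397 without it).

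Cytokine genes were higher in 10 of 32 and lower in 10, close to the shares over all genes (27.3% and 26.6%). CCL2, an attractant of monocytes, read 340, 403, 697 and 1356 with BMP4, against 167, 182, 198 and 196 without it. It climbed through the window (log2 change 2.53 ± 0.36, slope difference 0.63 ± 0.12 per day), and its late change did not pass with day 0 subtracted (1.79, adjusted p = 0.13). CXCL14, a chemokine of epithelia and placenta, read 166, 218, 338 and 829 with BMP4, against 149, 153, 146 and 156 without it. Day 4 stood only just above the untreated arrays and day 7 far above (log2 change 1.95 ± 0.48, slope difference 1.12 ± 0.14 per day), and with day 0 subtracted the change of 2.70 did not pass (adjusted p = 0.085). IL6 was at least 3.03-fold higher at only 189 to 229, with no call after day 0 subtraction (0.53, adjusted p = 0.32), and CCL26, an eosinophil attractant, fell by 1.86 ± 0.19 but missed the threshold with day 0 subtracted (-1.19, adjusted p = 0.054).

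IGF binding proteins included large changes each way, with 5 of 11 higher and 3 lower. IGFBP3, the main carrier of IGFs in plasma, read 4184, 4277, 4671 and 4728 with BMP4, against 293, 257, 336 and 370 without it. Both arms were steady and far apart (log2 change 4.39 ± 0.47, adjusted p = 7.91e-07). IGFBP7 rose by 3.59 ± 0.24 (1033 to 2197 with BMP4, 190 to 242 without it). IGFBP5 read 697, 2113, 2650 and 3829 with BMP4, against 490, 428, 663 and 1069 without it, so that the lowest BMP4 array lay within the untreated range. Its log2 change was 1.84 ± 0.41 (adjusted p = 0.00114), and 2.49 with day 0 subtracted (adjusted p = 0.066). IGFBP2 fell by 2.95 ± 0.17 (881 to 1337 with BMP4, 6314 to 10118 without it), but with day 0 subtracted its change was -0.23 (adjusted p = 0.70).

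Proteases and their inhibitors were higher in 21 of 40 and lower in 11. TIMP3, an inhibitor of metalloproteases held in the matrix, read 250, 497, 568 and 965 with BMP4, against 129, 122, 128 and 108 without it. It rose through the window and was at least 11.8-fold higher on average (adjusted p = 1.08e-07, slope difference 0.92 ± 0.15 per day). TFPI, an inhibitor of the tissue factor pathway of clotting, rose by 3.15 ± 0.46 on the log2 scale (675 to 3730 with BMP4, 217 to 568 without it), with no call after day 0 subtraction (2.15, adjusted p = 0.15). The matrix proteases ADAMTS9 and ADAMTS1 were at least 10.8-fold higher and higher by 2.76 ± 0.22 on the log2 scale. Among plasma protein genes, 6 of 19 were higher and 3 lower. APOA2 rose by 2.24 ± 0.34, and APOA1, the main protein of high-density lipoprotein, read 174, 273, 362 and 918 with BMP4, against 219, 158, 180 and 208 without it. Only the later BMP4 arrays of APOA1 stood above the untreated ones (log2 change 1.39 ± 0.51, slope difference 1.10 ± 0.19 per day). The adhesive protein gene VTN was at least 2.17-fold higher, and C1R, a complement protease, at least 1.93-fold lower. With day 0 subtracted, VTN (1.94, adjusted p = 0.14), APOA1 (1.74, adjusted p = 0.30) and C1R (-0.74, adjusted p = 0.23) did not pass.

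In the TGF-beta receptor list 9 of 15 were higher and 4 lower (median 0.66). BAMBI, a decoy receptor without a kinase that dampens BMP and TGF-beta signals, read 14681, 16958, 17545 and 18276 with BMP4, against 1319, 905, 1097 and 939 without it. Its arms were tight and far apart, and every BMP4 array was far above every untreated one (log2 change 4.14 ± 0.12, adjusted p = 3.02e-13). ACVRL1, a type I receptor of vessels, read 266, 359, 378 and 495 with BMP4, against 113, 121, 118 and 124 without it. It was at least 7.86-fold higher, while another detected ACVRL1 probe had a log2 change of only 1.36, and its co-receptor ENG rose by 1.83 ± 0.23 on the log2 scale. AMHR2, the type II receptor of anti-Müllerian hormone, was at least 7.27-fold higher at 223 to 409, whereas its ligand gene AMH was at least 1.36-fold lower at 117 to 135. The receptors BMPR2 and ACVR1, through which BMP ligands act, rose by 1.72 ± 0.21 and 1.03 ± 0.10, and for ACVR1 the change with day 0 subtracted was -0.17 (adjusted p = 0.64). RGMA, a co-receptor of BMPs that also guides axons through NEO1, fell by 2.98 ± 0.19 (231 to 300 with BMP4, 1228 to 1336 without it), and NEO1 by 0.31 ± 0.12 on the log2 scale. With day 0 subtracted, AMH (-1.38, adjusted p = 0.11) and NEO1 (0.016, adjusted p = 0.98) did not pass.

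Receptor tyrosine kinases were higher in 14 of 36 and lower in 12. PDGFRA, the PDGF receptor of early mesoderm, read 307, 430, 451 and 450 with BMP4, against 132, 134, 125 and 140 without it. Untreated cells were near the floor, which makes the rise at least 8.77-fold (adjusted p = 9.97e-07). PDGFRB rose by 2.67 ± 0.29 (354 to 953 with BMP4, 175 to 201 without it). Of the ligands, PDGFC was at least 2.03-fold higher at 152 to 190 but did not pass with day 0 subtracted (0.023, adjusted p = 0.98), and PDGFA did not pass (0.45 ± 0.22). KDR, a receptor of VEGF, rose by 1.97 ± 0.19 at 270 to 393 with BMP4, and by 0.61 with day 0 subtracted (adjusted p = 0.33). Its co-receptor gene NRP1 rose by 2.59 ± 0.34 and its ligand gene VEGFC by 1.21 ± 0.37 (1.33, adjusted p = 0.28, with day 0 subtracted), while VEGFA did not pass (-0.02 ± 0.28). CSF1R, the receptor of macrophage growth factor, was at least 3.35-fold higher at 207 to 219, and IL34, one of its ligands, was at least 1.17-fold lower.

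ERBB2, the coreceptor of the EGF family, named after its values were seen, read 637, 703, 795 and 706 with BMP4, against 2434, 2139, 1934 and 2197 without it. It was the largest fall among these kinases, and the arms were far apart (log2 change -1.77 ± 0.15, adjusted p = 4.93e-08). FGFR1, a receptor of FGF2, fell by 1.72 ± 0.23 at 133 to 145 with BMP4, against 195 to 283 without it, and did not pass with day 0 subtracted (-1.07, adjusted p = 0.16). MET, the receptor of HGF, did not pass (-0.33 ± 0.14, adjusted p = 0.0554). MERTK, which PROS1 binds, and its relative AXL were higher by 1.43 ± 0.17 and 0.62 ± 0.22, and TYRO3, of the same family, did not pass (0.10 ± 0.12). Neither MERTK (0.42, adjusted p = 0.49) nor AXL (-0.059, adjusted p = 0.95) passed with day 0 subtracted. Ephrin receptors split, with EPHA1 lower by 1.27 ± 0.15, EPHA4 lower by 1.32 ± 0.33, EPHA2 higher by 0.71 ± 0.17 and EPHB4 not passing (-0.05 ± 0.11). Of these, EPHA4 (-1.14, adjusted p = 0.30) and EPHA2 (0.76, adjusted p = 0.17) were lost with day 0 subtracted.

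**Figure D3:**
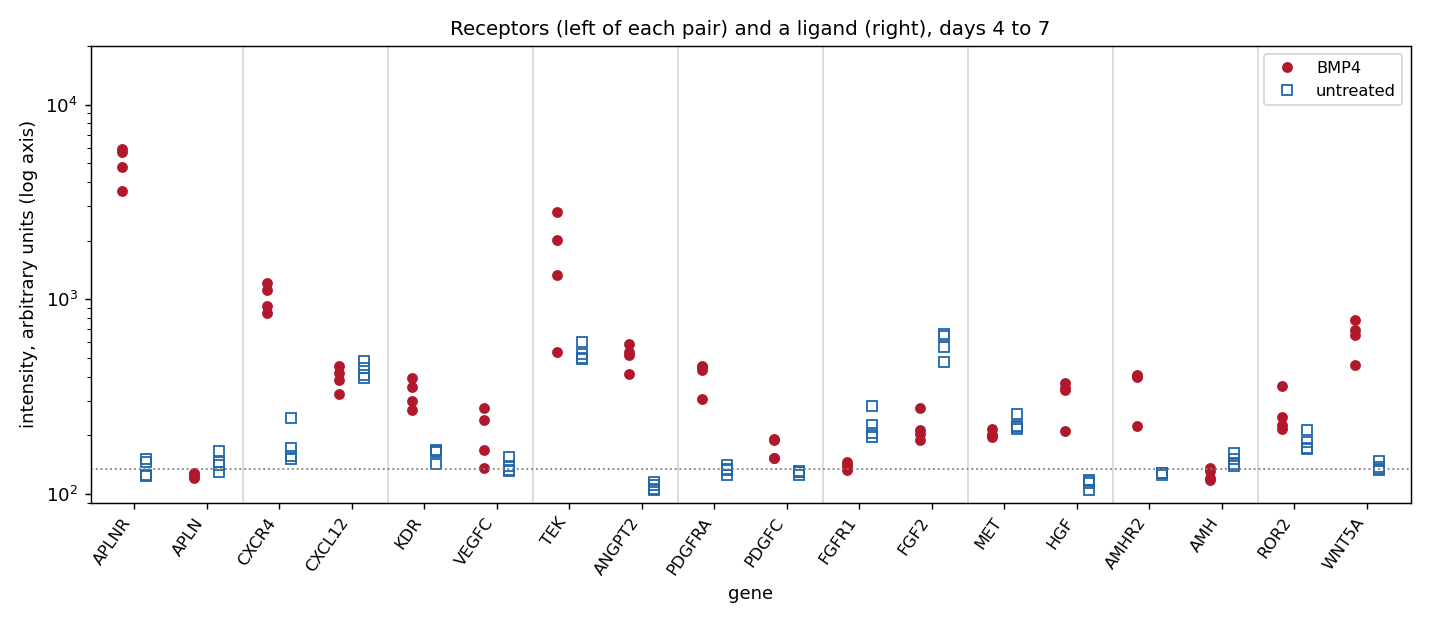
Deposited intensity (log axis, arbitrary units) of 9 receptors, each beside a ligand or binding partner, with 4 BMP4 arrays as filled circles to the left and 4 untreated arrays as open squares to the right of each gene, and the floor of 134.4 as a dotted line. APLNR lay at 3602 to 5890 with BMP4 and at 123 to 151 without it, while its ligand gene APLN stayed at 120 to 127 with BMP4 and 129 to 166 without it.

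Receptors coupled to G proteins for hormones, lipids and chemokines were higher in 20 of 57 and lower in 10 (median 0.19, or 0.07 at the bounds), and 75 more listed receptors were below the filter. APLNR led them, while its ligand gene APLN was at background with BMP4 and at least 1.28-fold lower than in untreated cells (-0.22, adjusted p = 0.75, with day 0 subtracted). ACKR3, a scavenger receptor of CXCL12, read 907, 802, 865 and 1082 with BMP4, against 153, 143, 154 and 180 without it. Arms were well apart (log2 change 3.89 ± 0.49, adjusted p = 3.97e-06), and with day 0 subtracted the change of 3.10 just missed the threshold (adjusted p = 0.054). CXCR4, the signalling receptor of CXCL12, read 847, 917, 1113 and 1212 with BMP4, against 151, 157, 172 and 245 without it. It too was separate on every day (log2 change 3.65 ± 0.61, adjusted p = 7.93e-05). CXCL12 itself did not pass, at 325 to 451 with BMP4 and 395 to 483 without it (-0.18 ± 0.17).

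PTH1R, the receptor of parathyroid hormone and its related peptide, read 412, 539, 759 and 983 with BMP4, against 144, 138, 129 and 156 without it. Day 7 was the highest BMP4 array (log2 change 3.75 ± 0.27, adjusted p = 9.65e-09). The endothelin receptor gene EDNRB and its ligand gene EDN1, named after their values were seen, rose by 2.82 ± 0.22 and 1.59 ± 0.20, but with day 0 subtracted the changes were -0.32 and 0.30 and neither passed. NPY5R, a receptor of NPY, did not pass (0.06 ± 0.17), and GRPR, the receptor of GRP, fell by 0.55 ± 0.17 (-1.04, adjusted p = 0.071, with day 0 subtracted). The dopamine receptor gene DRD4, chosen likewise, fell by 2.55 ± 0.23 (189 to 255 with BMP4, 723 to 912 without it).

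Cytokine and TNF receptors were higher in 16 of 40 and lower in 7. IL6ST, the signal-transducing chain shared by IL6, LIF and CNTF, read 750, 1161, 1288 and 1376 with BMP4, against 160, 168, 174 and 189 without it. Its BMP4 arrays were all high (log2 change 3.84 ± 0.25, adjusted p = 3.62e-09). The partner chains CNTFR and LIFR were higher by 3.54 ± 0.33 on the log2 scale and at least 1.91-fold, while the ligand gene LIF did not pass (-0.10 ± 0.17). TNFRSF19, a TNF receptor relative that is a WNT target, rose by 3.23 ± 0.30 and IL13RA1, a chain of the IL13 and IL4 receptors, by 2.68 ± 0.15.

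Frizzled receptors of WNT ligands moved apart. FZD5 fell by 2.24 ± 0.21 (131 to 156 with BMP4, 2 of 4 arrays above the floor, and 253 to 320 without it) and FZD7, the main frizzled of undifferentiated stem cells, by 1.72 ± 0.14 (509 to 756 with BMP4, 1799 to 2082 without it), while FZD4 rose by 1.50 ± 0.15 and did not pass with day 0 subtracted (0.48, adjusted p = 0.33). KREMEN2, a receptor of DKK1, fell by 1.44 ± 0.20. ROR2, a receptor of WNT5A, was higher by 0.89 ± 0.23, with no call after day 0 subtraction (-0.20, adjusted p = 0.82), and LGR5, a receptor of R-spondins, was at least 1.58-fold higher at 138 to 165 (1.01, adjusted p = 0.11, with day 0 subtracted).

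Guidance receptors were higher in 10 of 19 and lower in 7. UNC5A, a netrin receptor, was at background with BMP4 and at least 8.22-fold lower (326 to 428 without it), while FLRT3 and FLRT2, adhesion proteins that bind UNC5 receptors, rose by 2.78 ± 0.41 and 2.56 ± 0.30, neither passing with day 0 subtracted (1.20, adjusted p = 0.38, and 1.78, adjusted p = 0.067). Of adhesion and orphan receptors 6 of 21 were higher and 9 lower. ADGRA2, needed for brain vessels, was at least 12.2-fold higher, ADGRG6 at least 5.89-fold and ADGRG1 higher by 2.21 ± 0.27, while the orphan GPR176 fell by 2.86 ± 0.27. Of 17 ligand-gated channel genes 8 were lower and 3 higher, among them GABRP, and with day 0 subtracted 2 were lower and 2 higher. The falls were led by the serotonin channel gene HTR3A (-2.57 ± 0.22, with 2 of 4 BMP4 arrays above the floor and another probe at -0.37), GABRA5 (at least 3.20-fold lower) and the glutamate channel gene GRIK5 (-1.57 ± 0.19), of which GRIK5 did not pass with day 0 subtracted (-0.91, adjusted p = 0.14).

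Integrins were higher in 6 of 16 and lower in 3. ITGA5, the fibronectin receptor chain, rose by 2.71 ± 0.20 (805 to 1232 with BMP4, 210 to 308 without it), ITGAV, a receptor chain for vitronectin, by 2.71 ± 0.23 and ITGA9 by 2.16 ± 0.18, while ITGA6, a laminin receptor chain of stem cells, was at least 2.84-fold lower. Nuclear receptors were higher in 5 of 23 and lower in 5, close to the shares over all genes (27.3% and 26.6%). PPARG, a lipid-sensing factor of placenta and fat, read 417, 355, 321 and 331 with BMP4, against 121, 111, 120 and 125 without it. It was at least 7.60-fold higher (adjusted p = 1.35e-06), while RORA (-1.48 ± 0.20), NR5A2 (at least 2.10-fold lower) and RORB (at least 1.29-fold lower) were lower. RORA did not pass with day 0 subtracted (-0.55, adjusted p = 0.41).

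Retinoid genes were higher in 5 of 12 and lower in 4. ALDH1A2, which makes retinoic acid in mesoderm, read 517, 969, 1475 and 1955 with BMP4, against 128, 149, 165 and 227 without it. Both arms climbed from day 4 to day 7, and the BMP4 arrays were all higher (log2 change 4.10 ± 0.51, adjusted p = 3.45e-06). CYP26A1, which degrades retinoic acid, read 608, 362, 347 and 471 with BMP4, against 1274, 1757, 1715 and 2226 without it. Its BMP4 arrays were all lower (log2 change -2.28 ± 0.35, adjusted p = 4.03e-05). The synthetic enzyme gene ALDH1A3 rose by 1.91 ± 0.28 and the retinol receptor gene STRA6 by 1.55 ± 0.24, and ALDH1A3 did not pass with day 0 subtracted (0.44, adjusted p = 0.66).

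In prostaglandin metabolism 6 of 13 genes were higher and 3 lower. SLCO2A1, which carries prostaglandins into cells, read 3097, 3116, 2995 and 2278 with BMP4, against 180, 168, 168 and 169 without it. The BMP4 arrays were far above the steady untreated ones (log2 change 5.30 ± 0.26, adjusted p = 3.18e-10). HPGD, which inactivates prostaglandins inside the cell, read 815, 490, 382 and 353 with BMP4, against 126, 119, 116 and 121 without it. It was highest on day 4 and at least 11.3-fold above untreated cells (adjusted p = 7.77e-09). The secreted phospholipase gene PLA2G2A was at least 5.51-fold higher, and PTGES3, a co-chaperone with prostaglandin synthase activity, fell by 1.91 ± 0.15.

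Tryptophan enzymes were higher in 5 of 10 and lower in 2. IDO1, the first enzyme of the kynurenine pathway, read 190, 160, 158 and 167 with BMP4, against 934, 921, 1057 and 900 without it. Every BMP4 array was close to background (log2 change -3.68 ± 0.29, adjusted p = 2.60e-08). Farther down the pathway, KYNU, kynureninase, was at least 5.64-fold higher at 242 to 330, while another detected KYNU probe had a log2 change of only 1.19. AFMID, the formamidase, rose by 1.71 ± 0.26 without passing after day 0 subtraction (0.63, adjusted p = 0.48). TDO2, a liver enzyme for the same first step as IDO1, was at least 2.01-fold higher at 150 to 245 (1.68, adjusted p = 0.06, with day 0 subtracted).

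Steroid conjugating and reducing enzymes were higher in 6 of 16 and lower in 4, and all 6 passed with day 0 subtracted. UGT2B11 read 550, 1319, 1846 and 1813 with BMP4, against 120, 124, 127 and 135 without it, and was at least 34.0-fold higher (adjusted p = 6.74e-08). AKR1C3, which reduces keto-steroids and prostaglandins, read 340, 729, 971 and 954 with BMP4, against 209, 186, 188 and 193 without it. In both genes day 4 was the lowest BMP4 array and no array overlapped (AKR1C3 log2 change 2.65 ± 0.31). AKR1C2 rose by 2.85 ± 0.34 and UGT2B28 at least 5.03-fold. UGT2B11 and UGT2B28, and AKR1C2 and AKR1C3, are near-identical copies, so which copy the probes read is uncertain.

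Metal handling genes were higher in 9 of 31 and lower in 7, close to the shares over all genes (27.3% and 26.6%). SLC39A2, a zinc importer, read 478, 892, 1261 and 1595 with BMP4, against 108, 109, 112 and 110 without it. The BMP4 arrays climbed over the 4 days while untreated cells stayed at background, a rise of at least 25.6-fold (adjusted p = 4.26e-08, slope difference 0.64 ± 0.13 per day). The intestinal zinc importer gene SLC39A4 rose by 1.35 ± 0.22, SLC40A1, the iron exporter ferroportin, was at least 2.92-fold higher, and SLC30A3, a zinc transporter of synaptic vesicles, fell by 2.55 ± 0.19. Antioxidant enzymes were higher in 19 of 36 and lower in 4 (median 0.35). GSTO1, an omega-class glutathione transferase, read 6188, 4756, 4510 and 4650 with BMP4, against 1187, 1111, 1161 and 1143 without it. Arrays were tight within each arm (log2 change 2.22 ± 0.16, adjusted p = 1.10e-08). GPX2 was at least 5.59-fold higher, with no call after day 0 subtraction (1.25, adjusted p = 0.14), and the alpha-class genes GSTA2 and GSTA1, near-identical copies whose probes may cross-read, were higher by at least 10.7-fold and 8.99-fold.

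**Figure D4:**
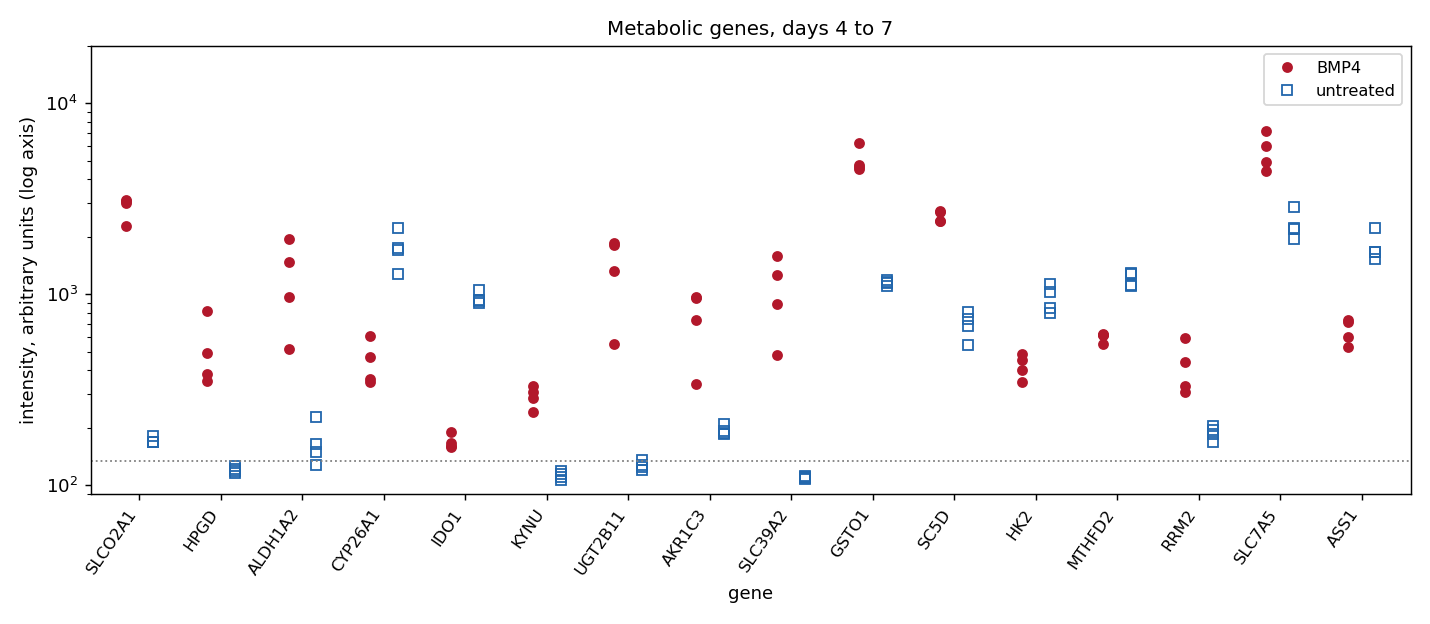
Deposited intensity (log axis, arbitrary units) of 16 metabolic genes, with 4 BMP4 arrays as filled circles to the left and 4 untreated arrays as open squares to the right of each gene, and the floor of 134.4 as a dotted line. SLCO2A1, SLC39A2 and ALDH1A2 were higher with BMP4 on every array, and IDO1, CYP26A1 and HK2 were lower on every array.

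Glycolysis genes were lower in 14 of 27 and higher in 5 (median -0.31), but with day 0 subtracted 1 was lower and 5 were higher. HK2, a hexokinase, read 488, 399, 451 and 348 with BMP4, against 848, 797, 1029 and 1134 without it. It was the largest fall of that list, with no overlap between arms (log2 change -1.41 ± 0.16, adjusted p = 1.77e-06), and with day 0 subtracted its change of -1.06 just missed the threshold (adjusted p = 0.0503). The neuronal enolase gene ENO2 fell by 0.87 ± 0.17, with a change of 0.01 after subtraction of day 0. PDK3, a kinase that restrains pyruvate dehydrogenase, fell by 0.90 ± 0.12, and PDK4, of the same family, was at least 1.63-fold higher at 142 to 178 (1.56, adjusted p = 0.083, with day 0 subtracted).

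The citric acid cycle had 9 of 26 genes higher and 5 lower and the respiratory chain 23 of 68 higher and 18 lower, close to the shares over all genes. Their medians were 0.04 and 0.08, and centring on housekeeping genes left 11 respiratory genes higher. IDH3G (0.90 ± 0.10), IDH3A (0.84 ± 0.16) and IDH2 (0.79 ± 0.17), all isocitrate dehydrogenases, rose on the log2 scale, with IDH3A not passing after day 0 subtraction (0.76, adjusted p = 0.14), and the malic enzyme gene ME2 fell by 0.79 ± 0.11. COX7A1, a muscle form of a cytochrome oxidase subunit, read 151, 184, 251 and 281 with BMP4, against 133, 133, 126 and 126 without it. It rose day by day and was at least 3.09-fold higher, though with day 0 subtracted it did not pass (0.64, adjusted p = 0.51). NDUFB9 fell by 1.24 ± 0.14, COX7B by 1.04 ± 0.10 and NDUFB1 by 0.84 ± 0.20 on the log2 scale, NDUFB1 not with day 0 subtracted (-0.61, adjusted p = 0.37).

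Pentose phosphate genes were higher in 2 of 11 and lower in 4. H6PD, which works in the endoplasmic reticulum, rose by 1.01 ± 0.20, and PRPS1, RPE and TALDO1 fell by 0.94 ± 0.10, 0.72 ± 0.13 and 0.46 ± 0.09 on the log2 scale. TALDO1 lost its call where the mean of the detected probes was used in place of the brightest probe. Cholesterol synthesis genes were higher in 8 of 20 and lower in 3, led by the late-step desaturase gene SC5D. SC5D read 2420, 2732, 2708 and 2418 with BMP4, against 541, 681, 808 and 738 without it. Its arms were well apart (log2 change 2.08 ± 0.17, adjusted p = 3.63e-08). MVK rose by 1.77 ± 0.22, NSDHL by 1.35 ± 0.16 and INSIG1, a brake on sterol synthesis, by 0.98 ± 0.17, and of these NSDHL (0.95, adjusted p = 0.064) and INSIG1 (0.43, adjusted p = 0.44) did not pass with day 0 subtracted. Fatty acid synthesis genes were higher in 6 of 16 and lower in 3, with SCD5 at least 1.82-fold higher, ELOVL5 lower by 1.17 ± 0.17, ELOVL1 higher by 0.96 ± 0.18 and ACACB lower by 0.92 ± 0.24. Oxidation genes were higher in 9 of 21 and lower in 4, with ACADL at least 1.77-fold higher and ACOX3, HADHA and ACAA1 higher by 1.10 ± 0.16, 0.97 ± 0.12 and 0.93 ± 0.17. After subtraction of day 0, of these 8 lipid genes only ELOVL1, ACADL and ACOX3 passed, and the changes of the others were 1.46 for SCD5, -0.62 for ELOVL5, -1.34 for ACACB, 0.49 for HADHA and 1.00 for ACAA1.

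One-carbon genes were lower in 10 of 23 and higher in 2 (median -0.35, or -0.15 at the bounds), but only 1 passed as lower with day 0 subtracted. MTHFD2, the mitochondrial folate enzyme, read 617, 610, 613 and 549 with BMP4, against 1119, 1298, 1107 and 1275 without it. The arms were each tight and did not overlap (log2 change -1.15 ± 0.18, adjusted p = 3.87e-05), and with day 0 subtracted the change of -1.08 missed the threshold (adjusted p = 0.064). MTHFD1 fell by 0.82 ± 0.17, while SHMT1 and AHCYL1 rose by 0.81 ± 0.22 and 0.79 ± 0.13, and none of these 3 passed with day 0 subtracted (changes of -0.43, 0.24 and 0.59, adjusted p = 0.46, 0.76 and 0.17). Nucleotide synthesis genes were lower in 11 of 23 and higher in 2, and 6 were lower with day 0 subtracted. The purine enzymes PPAT and PFAS fell by 0.99 ± 0.12 and 0.98 ± 0.18 and RRM2B by 1.07 ± 0.16 on the log2 scale, RRM2B not with day 0 subtracted (-0.60, adjusted p = 0.26). RRM2, the ribonucleotide reductase subunit of dividing cells, ran against its list and read 588, 442, 330 and 309 with BMP4, against 195, 168, 203 and 185 without it. Its BMP4 arrays were higher on every day and lowest on day 7 (log2 change 1.80 ± 0.29), and with day 0 subtracted the change of 1.19 did not pass (adjusted p = 0.21).

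Amino acid enzymes were higher in 7 of 25 and lower in 9, and transporters higher in 7 of 22 and lower in 9, beside 27.3% and 26.6% of all genes. ASS1, which condenses citrulline with aspartate, fell by 1.63 ± 0.15 (527 to 730 with BMP4, 1536 to 2238 without it) and the branched-chain enzyme gene BCAT2 by 0.85 ± 0.17, while the polyamine catabolism gene SAT1 rose by 1.32 ± 0.15 and OAT by 0.99 ± 0.12. SLC7A5, the large neutral amino acid transporter, read 7202, 5992, 4935 and 4415 with BMP4, against 2882, 2233, 1960 and 2192 without it. It was higher on every BMP4 array, which read highest on day 4 (log2 change 1.31 ± 0.17, adjusted p = 4.69e-06). The creatine transporter gene SLC6A8 fell by 1.33 ± 0.16 and SLC7A3, a cationic amino acid carrier, by 1.29 ± 0.19, and the glutamate carrier gene SLC1A3 rose by 1.19 ± 0.14. Of these 8 genes, BCAT2 (0.30), SLC7A3 (-0.59) and SLC1A3 (0.54) did not pass with day 0 subtracted. Creatine and glycogen genes were lower in 8 of 14 and higher in 1 (median -0.61), of which 3 were lower and 1 higher with day 0 subtracted. CKMT1A and CKMT1B, near-identical copies of mitochondrial creatine kinase, fell by 2.46 ± 0.22 and 2.58 ± 0.22, CKMT1B with 1 of 4 BMP4 arrays above the floor. UGP2 fell by 1.15 ± 0.10 (3162 to 3912 with BMP4, 6613 to 8441 without it, its 4 other probes at 0.05, -1.85, -2.25 and -2.51), and the muscle glycogen phosphorylase gene PYGM was at least 1.60-fold lower (-0.81, adjusted p = 0.13, with day 0 subtracted).

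Measures of growth and stress moved with these groups, and their part in the other results was not tested. Cell cycle genes were lower in 12 of 28 and higher in 6, and 3 were lower and 2 higher with day 0 subtracted. CDKN1A, which encodes the inhibitor p21, read 1732, 4300, 5207 and 5471 with BMP4, against 1511, 1380, 959 and 1170 without it. BMP4 arrays of days 5 to 7 were far above the untreated ones and day 4 only slightly (log2 change 1.71 ± 0.28, slope difference 0.72 ± 0.14 per day). CDKN1C rose by 1.73 ± 0.29 (1.63, adjusted p = 0.087, with day 0 subtracted) and CCND3, a cyclin of differentiating cells, by 1.32 ± 0.14, while the mitotic checkpoint gene BUB1 fell by 1.57 ± 0.12. Stress genes were higher in 8 of 17 and lower in 3, of which 1 was higher with day 0 subtracted, with TRIB3 higher by 1.95 ± 0.28, GADD45B higher by 1.27 ± 0.23, DDIT4 lower by 1.39 ± 0.45 and HSPA1A lower by 1.22 ± 0.22. These 4 stress genes did not pass with day 0 subtracted (changes of 1.80, 0.79, 1.29 and -0.69, adjusted p = 0.055, 0.28, 0.39 and 0.34). Housekeeping genes were higher in 4 of 13 and lower in 2 (median 0.16), with YWHAZ, VCP and EMC7 higher by 0.81 ± 0.10, 0.73 ± 0.11 and 0.66 ± 0.10 and PPIA lower by 0.59 ± 0.12 (another YWHAZ probe had -0.44), and no housekeeping gene was higher with day 0 subtracted (0.49 for YWHAZ, 0.51 for VCP and 0.10 for EMC7).

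The late state also differed from the first days of exposure. In 1237 genes (9.24%) the late change differed from that of days 1 to 3, with 660 above it (4.93%) and 577 below it (4.31%). Without the BMP4 array of day 4 the count was 2402, without that of day 6 it was 771, and centring on housekeeping genes put 65.6% of the called genes above, against 53.4%. The largest gains were in LUM (late minus early 4.75 ± 0.80), SLC39A2 (4.65 ± 0.68), MYL4 (4.45 ± 0.55), HOPX (4.41 ± 0.86), COL3A1 (4.39 ± 0.96) and NPY (4.38 ± 0.67), all on the log2 scale. HOPX, an atypical homeodomain gene of heart and other progenitors, read 188, 680, 1135 and 1567 with BMP4, against 117, 115, 137 and 119 without it. It was at least 15.6-fold higher on average, with each BMP4 day above the day before. COL3A1, a fibrillar collagen gene, read 371, 1740, 3150 and 5406 with BMP4, against 193, 187, 387 and 277 without it. Its day 4 BMP4 array lay within the untreated range and the later ones far above (log2 change 3.54 ± 0.63, adjusted p = 1.41e-04).

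Below their early change stood SIX3 (late minus early -3.58 ± 0.61), CDH6 (-3.48 ± 0.67), SOX21 (-2.94 ± 0.56), RHBDL3 (-2.78 ± 0.38), FEZF1 (-2.60 ± 0.57) and NODAL (-2.59 ± 0.76). The untreated arm itself moved between days 1 to 3 and days 4 to 7. On the log2 scale this drift was 3.25 for SIX3, 1.88 for CDH6, 1.33 for SOX21, 1.12 for RHBDL3, 2.56 for FEZF1 and -0.94 for NODAL. Of these, SIX3 and FEZF1 passed (adjusted p = 0.0035 and 0.015 in limma). The late minus early values hold this drift as well as any change in the BMP4 arm. CDH6, a cadherin of epithelial and neural crest cells, had an early log2 change of 2.31 and a late change of -1.17 ± 0.43, so its sign turned. With day 0 subtracted the late change was -2.63 (adjusted p = 0.066). Its arrays overlapped at 151 to 231 with BMP4 and 210 to 565 without it. NODAL, the ligand of the primitive streak, had an early log2 change of 3.88, and its late values were 403, 167, 143 and 134 with BMP4, against 144, 130, 117 and 128 without it. By day 6 the BMP4 array was within the untreated range, and the late change (at least 2.05-fold) did not pass with day 0 subtracted (-0.49, adjusted p = 0.79). FEZF1, a forebrain factor, was at background with BMP4 and at least 4.21-fold lower than in untreated cells.

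The slope difference is the slope of the BMP4 arm over days 4 to 7 minus that of the untreated arm. Its sign does not say which arm moved or whether the arms drew apart or together. Past the threshold it was above 0 in 263 genes (1.96%) and below 0 in 125 (0.933%), 388 in all (2.90%). With day as a block the count was 620, while leaving out an array of day 4 left 48 (BMP4) or 81 (untreated), and leaving out the untreated array of day 5 or day 7 left 222 or 250. Slope differences above 0 were led by TM4SF1, a membrane protein of vessels and mesenchyme. It read 137, 410, 660 and 1669 with BMP4, against 162, 150, 194 and 185 without it. On day 4 the BMP4 array was the lowest of all, and from day 5 it was above every untreated one (slope difference 1.49 ± 0.22 per day, adjusted p = 0.00145). COL6A3 followed (1.45 ± 0.26), then GNRH2, a releasing hormone gene (1.40 ± 0.18), IL32, a cytokine (1.37 ± 0.14), and GFRA3, a receptor of artemin (1.34 ± 0.16). For GFRA3, which read 122, 170, 260 and 348 with BMP4, against 136, 133, 136 and 112 without it, the ligand gene ARTN was lower by 1.48 ± 0.19. None of TM4SF1, GNRH2, IL32, GFRA3 and ARTN kept a late call with day 0 subtracted (changes of 1.35, 3.06, -0.50, 0.70 and -0.67, adjusted p = 0.58, 0.14, 0.81, 0.68 and 0.27), while the slope does not use day 0. Named after their values were seen, the proteoglycan gene BGN read 407, 1343, 2604 and 5069 with BMP4, against 394, 400, 500 and 523 without it, and the collagen gene COL1A2 read 1109, 2314, 3188 and 5562 with BMP4, against 1164, 1164, 1227 and 1102 without it. Their late calls were likewise lost with day 0 subtracted (changes of 1.77 and 1.45, adjusted p = 0.32 and 0.16). In both genes the arms met on day 4 and were apart on day 7 (slope differences 1.11 ± 0.12 and 0.80 ± 0.09 per day).

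Slope differences below 0 were led by CER1, a secreted antagonist made by anterior endoderm and streak. It read 1711, 327, 209 and 157 with BMP4, against 124, 128, 152 and 142 without it. The high day 4 array made most of its late change, and day 7 stood barely above the untreated arrays (slope difference -1.86 ± 0.22 per day, adjusted p = 4.31e-04). LHX2, a forebrain homeobox gene, read 174, 125, 122 and 121 with BMP4, against 132, 144, 207 and 622 without it. Here the untreated arm rose while the BMP4 arm sank to background (-1.84 ± 0.23 per day). The streak genes MIXL1 and EOMES read 1135, 293, 158 and 144 and 1725, 479, 315 and 225 with BMP4, against 117 to 128 and 145 to 177 without it. They faded over the window (slope differences -1.66 ± 0.21 and -1.46 ± 0.16 per day), as did the WNT target SP5 (-1.32 ± 0.19). For CER1, MIXL1, EOMES and SP5 the late call did not survive day 0 subtraction (changes of 1.77, 2.29, 2.71 and 0.84, adjusted p = 0.55, 0.39, 0.17 and 0.65).

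**Figure D5:**
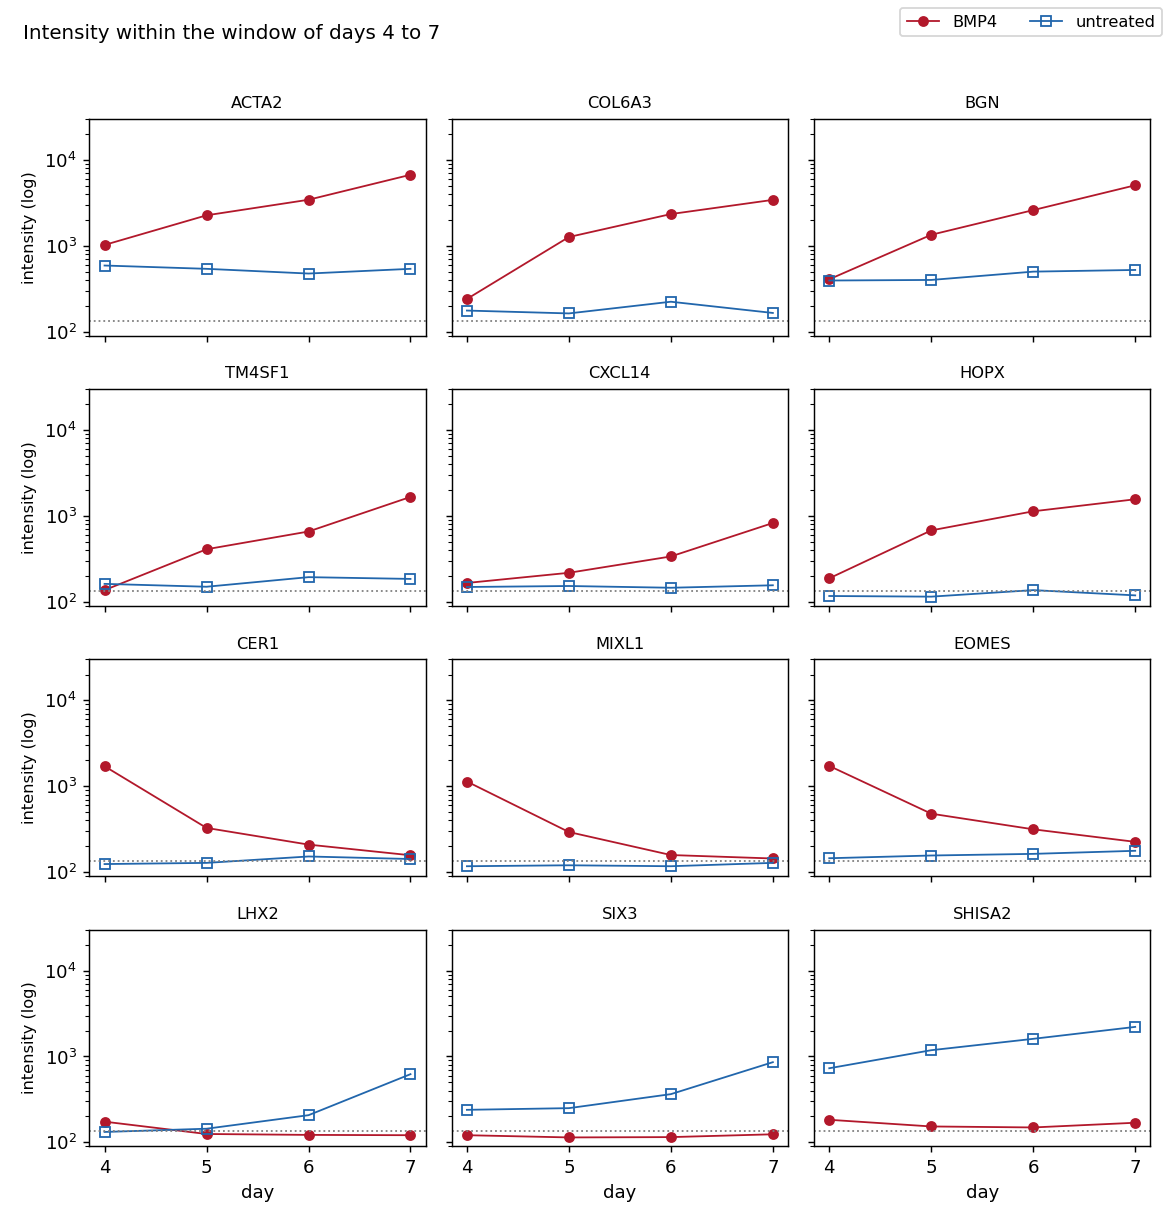
Deposited intensity (log axis, arbitrary units) on days 4, 5, 6 and 7 of 6 genes with a slope difference above 0 (top rows) and 6 with one below 0 (bottom rows). BMP4 arrays are filled circles and untreated arrays open squares, 1 array per point, with the floor of 134.4 dotted. In the bottom rows CER1, MIXL1 and EOMES fell under BMP4 but had a higher mean than untreated cells. SIX3 and SHISA2 rose in the untreated arm. ACTA2 reached 6720 on day 7 with BMP4 and 539 without it, while LHX2 was at 121 with BMP4 and 622 without it on that day.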

How the data were processed

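Biotin-labelled RNA of H1 cells was measured on 16 bead arrays. The values used are linear intensities as deposited by the authors. Their quantiles differ between arrays by at most 0.000129 on the log2 scale, so the deposited intensities are quantile normalized; for scanner, software and background handling the sources used here give nothing. A further 32 signal columns match no label and were not used.

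Background was estimated from the values (peak 117.3, SD 7.66), corrected by normexp, and log2 was taken after adding 16, since the authors deposited no log2 values. Of 47323 probes 30113 had 1 gene symbol, 8 had several and 17202 had none in the platform annotation. A gene is its probe with the highest mean, kept where above 134.4 (the 0.99 quantile of the mirrored background) on at least 3 arrays, which left 13391 of 20046 genes. Of these, 3563 had more than 1 detected probe. Other detected probes of some named genes changed less or otherwise, among them FZD7 (-0.21 against -1.72), MEIS2 (0.63 against 4.28), HTR3A (-0.37 against -2.57) and TFAP2A (1.00 against 4.11). The same held for PRRX1 (0.65 against 3.97), ANGPT2 (1.20 against 4.34), PPARG (1.10 against 3.45), KREMEN2 (-0.32 against -1.44) and BCAN (-0.02 and -0.60 against -1.59). So it did for TFPI (0.97 against 3.15), TNFRSF19 (1.27 against 3.23), IL6ST (1.80 against 3.84), PTH1R (1.75 against 3.75) and LFNG (-0.50 against -1.63). HAPLN1 (2.44 against 5.79), HEY1 (2.96 against 4.73), GRP (2.19 against 3.77), HGF (2.18 against 3.29) and KRT16P2 (4.70 against 6.15) were further cases. A bound of "at least N-fold" holds for the probe used.

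limma 3.58.1 in R 4.3.3 fitted the mean of each arm and window over all 16 arrays, with an intensity trend. The script was tested on simulated data. Alternatives covered samples, pairing by day, day 0, background, offset (50), filters, probes, scaling, trend, window and each array left out. Figures used Python 3.11.15 and matplotlib 3.10.9. Genes named are the 15 largest rises and falls whose arms do not overlap, 4 members of each of 52 lists, the leading late-minus-early and slope genes, ligand or receptor partners, and genes stated as chosen after their values were seen. Members and lists were chosen with earlier results of these data known.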

Additional observations from a re-analysis of the deposited data

Results flagged for a closer look

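The late change differed from that of days 1 to 3 in 1237 genes, by the test of the difference itself in limma. Late minus early, in log2 units, the 6 largest positive differences were 4.75 for LUM, 4.65 for SLC39A2, 4.45 for MYL4, 4.41 for HOPX, 4.39 for COL3A1 and 4.38 for NPY. The 6 largest negative ones were -3.58 for SIX3, -3.48 for CDH6, -2.94 for SOX21, -2.78 for RHBDL3, -2.60 for FEZF1 and -2.59 for NODAL.

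For the genes named, each arm's 4 arrays were searched for an array far from the other 3 by Dixon's criterion, which chance meets in about 1 of 20 groups. Of 582 groups checked, 39 met it. The values are deposited intensities, and the 4 arrays are 4 days, so a course over days can meet the criterion too. With BMP4, day 4 gave the highest array, which stood apart at 948 for BMP2, 737 for EPHA1, 6188 for GSTO1, 2265 for L1TD1, 174 for LHX2, 133 for NPTX1 and 1038 for PRPS1. With BMP4, day 4 gave the lowest array, which stood apart at 223 for AMHR2, 512 for CNTFR, 216 for EPHA2, 209 for HGF, 436 for MEIS2, 307 for PDGFRA, 177 for SLC39A4, 146 for SLC40A1, 1007 for SNAI2, 781 for TBX3, 990 for TCIM and 374 for TRIB3. With BMP4, day 6 gave the lowest array, which stood apart at 594 for ACVR1 and 178 for SLC6A8. With BMP4, day 7 gave the highest array, which stood apart at 131 for NR5A2 and 245 for TDO2. With BMP4, day 7 gave the lowest array, which stood apart at 549 for MTHFD2 and 2278 for SLCO2A1. In the untreated arm day 4 was the highest and stood apart at 425 for ACAA1, 297 for HSPA1A, 131 for IL6, 138 for KRT16P2 and 180 for SLCO2A1. In the untreated arm day 4 was the lowest and stood apart at 397 for ITGAV and 186 for RORA. Other untreated arrays that stood apart were the highest ones at 391 for ACVR1 on day 5, 137 for HOPX on day 6 and 780 for BTBD17 on day 7. The lowest ones were 362 for PRKCB on day 6, and 112 for GFRA3, 117 for IL32 and 142 for KDR on day 7.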

How the results depend on the processing

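Each alternative changed 1 choice. With the day 0 difference subtracted the late effect counted 2610 genes, 1194 higher and 1416 lower, against 7224 without that step, and its error includes the single day 0 array of each arm. Under that subtraction 10 named genes that had a call before or after it turned sign, to -0.17 for ACVR1, -0.059 for AXL, 0.30 for BCAT2, 1.29 for DDIT4, -0.32 for EDNRB, 0.015 for ENO2, -0.50 for IL32, 0.016 for NEO1, -0.49 for NODAL and -0.20 for ROR2. Named genes with no call in either setting, such as MET and LIF, could turn sign too and are not counted. The other alternatives kept the count of the late effect within 1.5 times, and leaving out 1 array gave 6585 to 7324 genes (3338 to 3655 higher, 3238 to 3669 lower).

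Late minus early counted 2089 genes over days 5 to 7 (1106 above, 983 below), and 771 to 2402 with 1 array left out (423 to 1245 above, 348 to 1157 below). The slope difference counted 168 genes with no filter (126 above, 42 below), 196 with no intensity trend (152 above, 44 below), and 48 to 503 with 1 array left out (34 to 323 above, 14 to 180 below). The causes were not tested.

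With day as a replicate block the counts were 7185 for the late effect, 1372 for late minus early and 620 for the slope difference (397 above, 223 below). Deviations of same-day arrays from their arm means correlated at 0.128, 0.042, 0.082 and 0.057 for days 4 to 7, each the highest for its day, which is a hint from the data and not part of the design. Of the counts per gene list, 130 moved and 1950 did not move by over 1.5 times. Signals near the floor of 134.4 limit what dim genes can show.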
